A study of Saccharomyces cerevisiae with 12 samples.

Results

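In wild-type budding yeast, DNA content at 40 min after release from G1 arrest was set against that at 20 min within each of 2 replicates, which gives 4 libraries of the 12 in the series. The wild type was strain w303a, held in G1 by α-factor, a peptide that stops mating-type a cells there, and then released from it, and genomic DNA of each sample was sequenced. The mutant used beside it carried eco1-W216G, a change in the acetyltransferase Eco1, which modifies the cohesin subunit Smc3 during S phase. Both strains went through the same arrest and release, with 2 libraries per strain at 0, 20 and 40 min. Cells released from α-factor stay only partly in step, so each library is an average over a population. Nothing in the labels says that the replicates were separate cultures, and p-values then measure only the spread between these libraries, which may be technical.

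Chromosomes are copied once per S phase from origins that fire in a set order. A region near an early origin doubles in many cells first and stands above the genome in relative copy number. It returns towards the genome level as the rest of the genome doubles, while regions reached later by the forks gain in relative terms. In yeast, centromeres are known for early replication and chromosome ends for late replication.

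The data were log2 ratios of each library to a 0-min library in rows of 1 kb. The 0-min library of a replicate enters both its ratios and cancels in the difference of 40 minus 20 min, called the change here. Of 12165 rows in the table, 11630 nuclear rows on 16 chromosomes were used, without 449 nuclear rows with a ratio of exactly 0. A stretch of chromosome XV beside FRE3 held next to no reads in the eco1 20- and 40-min libraries but held reads as in wild type in the 0-min libraries labelled eco1, which also cancel in the change. Each column and each change was centred on its nuclear median, so a change of 0 means that a region kept pace with the median row. Rows were averaged in 1213 windows of 10 kb. The total of mapped reads was 9544441 and 7731918 at 20 and 40 min in replicate 1, and 5380862 and 5876532 in replicate 2. Counting error alone gave a window's change a median SD of 0.023 in replicate 1 and 0.029 in replicate 2. The changes themselves had an SD over windows of 0.075 and 0.085.

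Windows that stood high at 20 min in 1 replicate but not at 40 min were on average lower at 40 min in the other replicate too. Both these windows and those high at both times had mean levels above the genome median at 40 min. A group of windows was formed from replicate 2 alone and read in replicate 1, and then the other way round, so that the grouping and the change shared no library. In replicate 1, the 68 windows in the highest 10% of replicate 2 at 20 min but not at 40 min went from a mean level of 0.136 at 20 min to 0.013 at 40 min, and 64 of them had a change below 0. In replicate 2, the 81 such windows of replicate 1 went from 0.143 to 0.045, and 69 of them had a change below 0. The mean changes were -0.121 and -0.101.

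The opposite group, windows in the highest 10% at 40 min only, had changes of 0.039 in replicate 1, with 53 of 68 windows above 0, and 0.089 in replicate 2, with 72 of 81 above 0. Windows in the highest 10% at both times, 54 and 41 in number, had mean changes of -0.037 and -0.0057 and stood at 0.054 and 0.116 at 40 min. The windows outside both, 1023 and 1010 in number, had mean changes of 0.0037 and 0.0051. These groups rest on neighbouring windows of few libraries, so they are a description with no test.

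**Figure D1:**
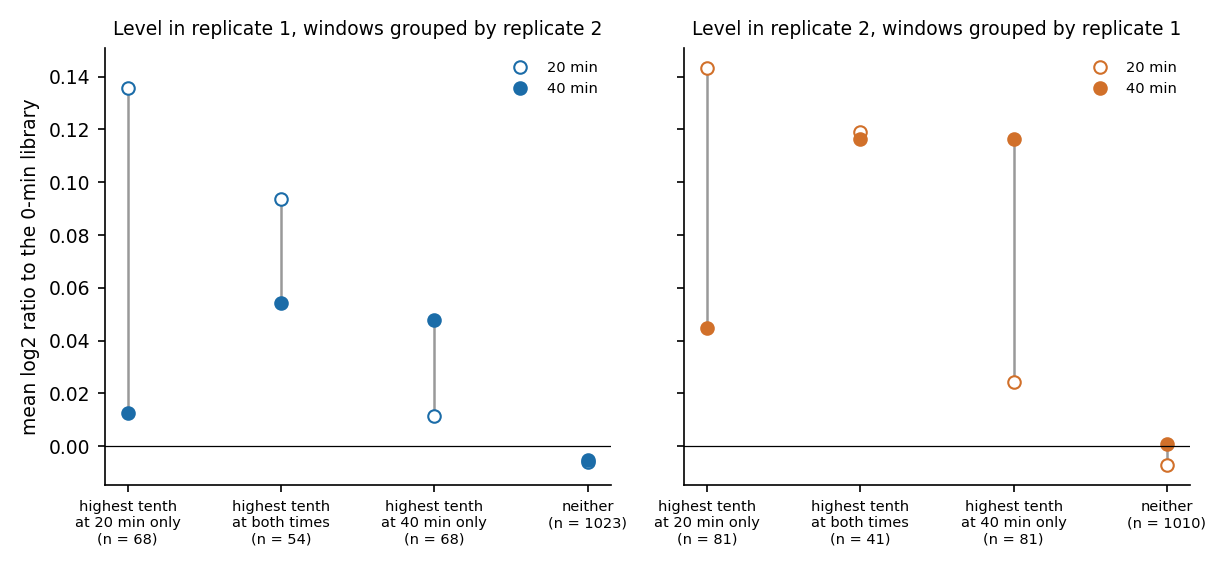
Mean level (log2 ratio to the 0-min library, centred on the nuclear median) at 20 min (open) and 40 min (filled) of 10-kb windows grouped by the other replicate; n is the number of windows. Windows in the highest 10% at 20 min only stand at 0.136 and 0.143 at 20 min and at 0.013 and 0.045 at 40 min.

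The highest 10% held 122 windows in each column. Of these, 77 (63.1%) were shared between the replicates at 20 min, and 52 (42.6%) at 40 min. Within a replicate, where both columns share the 0-min library, 41 windows (33.6%) in replicate 1 and 54 (44.3%) in replicate 2 were in the highest 10% at both times. The spread of the profile over windows did not move the same way in both replicates. Its SD was 0.072 at 20 min and 0.062 at 40 min in replicate 1, and 0.086 and 0.088 in replicate 2.

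Across windows the changes of the replicates correlated with Pearson's r = 0.48 (1213 windows), and with r = 0.67 over the 1094 windows that kept all 10 rows. The sign was the same in both replicates in 71.6% of windows. Of 1213 windows, 431 (35.5%) had a change below 0 in both replicates and 437 (36%) had one above 0 in both. A change of at least 0.1 in both replicates was seen in 44 windows downward (3.63%) and in 39 upward (3.22%). The 44 had median levels of 0.160 and 0.180 at 20 min in replicates 1 and 2, and of -0.013 and 0.015 at 40 min. The 39 had median levels of -0.051 and -0.041 at 20 min, and of 0.079 and 0.120 at 40 min. Both sets were chosen by the change, which favours high 20-min levels in the 44 and low ones in the 39.

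**Figure D2:**
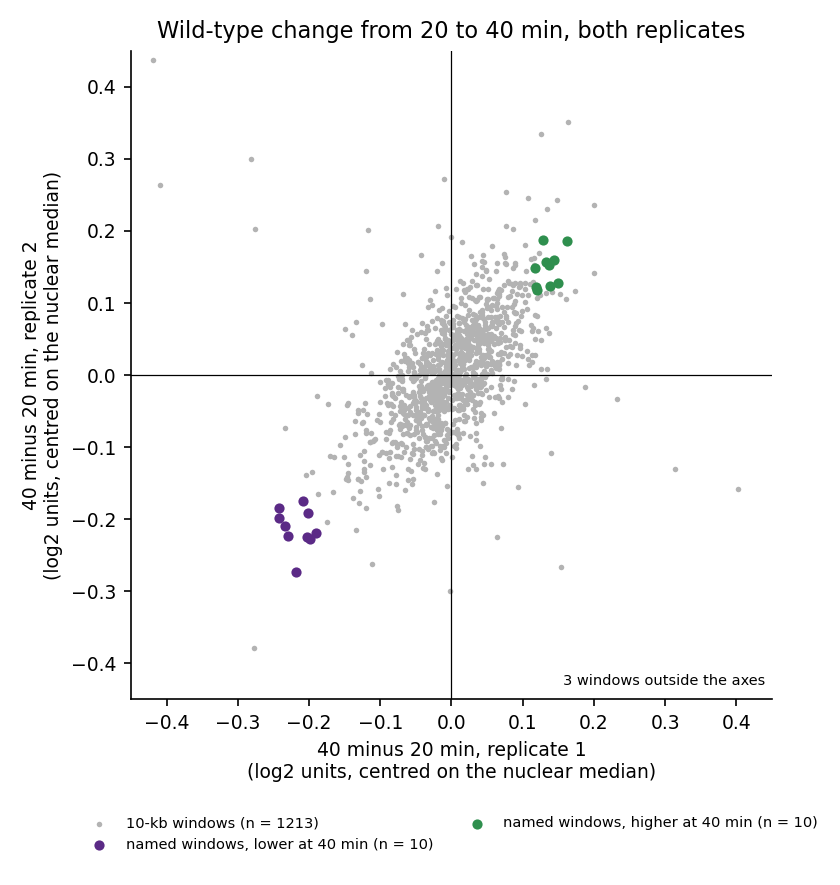
Change from 20 to 40 min (log2, centred on the nuclear median) of 1213 windows of 10 kb in replicate 1 (x axis) and replicate 2 (y axis). Points lie along the diagonal (r = 0.48); purple and green mark the 10 named windows in each direction, the largest shared changes among windows with at least 8 rows outside the rDNA and chromosome ends, and 3 windows lie outside the axes.

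No single window passed the test. Limma, fitted to the paired changes of both strains over all windows, called 0 of 1213 (0%) at a Benjamini-Hochberg adjusted p under 0.05, and the smallest adjusted p was 0.146. At an unadjusted p under 0.05 it held 171 windows, 87 lower (7.17%) and 84 higher (6.92%) at 40 min. The spread in this fit comes from both strains. The eco1 replicates differed more from each other (r = -0.16 between their changes over windows) than the wild-type replicates. Over windows, the deviations of the 20- and 40-min libraries of 1 number correlated with r = 0.45 in wild type and r = -0.28 in eco1. With the 0-min library of the number, those at 20 and 40 min had r = 0.18 and 0.019 in wild type. In eco1 these were 0.12 and -0.16. Whether the eco1 numbers are crossed between the times was not tested. Each eco1 change of a replicate, here and below, depends on the numbers as labelled, unless they are said to be crossed. Without wild-type replicate 1 limma called 6 windows, and without replicate 2 it called 7. With wild-type changes alone the smallest limma adjusted p was 0.051, with 314 windows at an unadjusted p under 0.05. In an alternative chosen after seeing the data, with reads summed per window and the eco1 replicate numbers crossed, limma called 64 windows, 42 lower and 22 higher. With reads summed and the numbers as labelled it called 0, on the same wild-type changes. Crossing acts only through the eco1 spread, which a negative r makes smaller. More calls are thus favoured by this choice and are no support for the windows. Windows below are therefore given by their values, in the order of the smaller of their 2 replicate changes, and none is a call.

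Windows were named among those with at least 8 rows and outside the rDNA and the outermost 10 kb, at most 1 per 30 kb. Larger shared changes were seen in windows left out by this: YIL177C (IX, 1 to 10000) had -0.358 and -0.777 on 1 row of 9 to 23 reads. Among the windows that could be named, the largest shared change downward was in that of CDC42, a gene needed for cell polarity, on chromosome XII (sacCer3, 600001 to 610000). Its level was 0.175 and 0.206 at 20 min in replicates 1 and 2, and -0.057 and -0.014 at 40 min. The levels of the times do not overlap, which the choice by large changes favours. The changes of -0.230 and -0.223 gave a mean of -0.226 ± 0.0048 (SD, n = 2; limma SE 0.028, adjusted p = 0.146). They rest on 9291 and 6417 reads in replicate 1 and on 5245 and 4831 in replicate 2.

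The next windows in this order, SAM1 and AVL9, lay on the same chromosome. SAM1 encodes an S-adenosylmethionine synthetase, and its window (XII, 510001 to 520000) went from 0.121 and 0.161 at 20 min to -0.1003 and -0.109 at 40 min. With changes of -0.218 and -0.273, it ended furthest below the genome median of the 10 named windows. AVL9 encodes a protein of the late secretory pathway, and its window (XII, 370001 to 380000) went from 0.179 and 0.186 to -0.056 and -0.020. In both windows each 20-min level was above each 40-min level, and the limma adjusted p was 0.146 for each. These 3 windows were the only ones that passed limma's test without the replicate block (adjusted p = 0.041 for each).

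EAP1, whose product binds the cap-binding factor eIF4E, gave its name to the window at XI, 50001 to 60000, which also holds part of the kinase gene TOR2. Its level was 0.197 and 0.238 at 20 min and -0.0088 and 0.017 at 40 min. HTB1 (IV, 910001 to 920000) encodes histone H2B and lies beside the H2A gene HTA1 and the silencing gene SIR4. Its window had one of the highest 20-min levels, 0.230 and 0.222, and levels of 0.028 and -0.0020 at 40 min. RCE1 (XIII, 810001 to 820000), a protease of prenylated proteins, went from 0.206 and 0.143 to -0.039 and -0.052. All 6 windows named so far thus lost their whole lead over the genome median, or nearly so, by 40 min.

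The other 4 windows with changes downward were those of FRE3, a ferric reductase for siderophore iron (XV, 1050001 to 1060000), FRM2, a nitroreductase-like protein (III, 70001 to 80000), HXT3, a glucose transporter (IV, 1160001 to 1170000), and IML1, a subunit of a complex that restrains TORC1 (X, 680001 to 690000). Their changes were -0.201 and -0.191 for FRE3, and -0.189 and -0.219 for FRM2. They were -0.243 and -0.184 for HXT3, and -0.209 and -0.175 for IML1. Over the 10 windows the level ranged from 0.121 to 0.253 at 20 min and from -0.109 to 0.037 at 40 min, so the times did not overlap in any of them or between them. Their mean 20-min level stood at percentile 94.2 to 99.3 of all windows, and limma's adjusted p ran from 0.146 to 0.175. The windows were chosen for large falls, which favours a separation of the times and high 20-min levels. The next window by rank, that of YGL006W-A on chromosome VII, had changes of -0.175 and -0.204.

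Among the named windows, gains were smaller than losses. The 10 windows with the largest shared change upward had changes of 0.118 to 0.163 in replicate 1 and of 0.118 to 0.188 in replicate 2, against -0.243 to -0.189 and -0.273 to -0.175 for those downward. A change of at least 0.15 in both replicates was reached by 15 windows downward and by 3 upward. Over all windows the tails were closer, with 5th and 95th percentiles of -0.122 and 0.105 in replicate 1 and of -0.128 and 0.129 in replicate 2. Limma's adjusted p of the 10 was 0.172 to 0.472. Their 40-min levels were all above 0, from 0.012 to 0.370, while 16 of their 20 levels at 20 min were below 0. The choice by large gains favours this.

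The window of GEA2, an exchange factor for Arf GTPases (V, 110001 to 120000), was among the lowest of the genome at 20 min, at -0.113 and -0.069, and stood at 0.013 and 0.123 at 40 min. It lies in a run of 4 windows (V, 100001 to 140000) that were higher in both replicates, with mean changes of 0.119 and 0.155. The windows of MNN1, a mannosyltransferase of the Golgi (V, 150001 to 160000), and GDA1, a Golgi guanosine diphosphatase (V, 70001 to 80000), are on the same chromosome. MNN1 went from -0.046 and -0.076 to 0.084 and 0.085, and GDA1 from -0.073 and -0.113 to 0.042 and 0.012. All 3 windows moved from below the genome median to above it in both replicates.

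Chromosome XV held 3 further windows. CMK2, a calmodulin-dependent kinase (XV, 290001 to 300000), went from -0.075 and -0.061 to 0.067 and 0.101. YOL038C-A, an uncharacterised gene beside RPS15 and SMC5 (XV, 250001 to 260000), had changes of 0.118 and 0.149. The window of YOR389W near the right end (XV, 1070001 to 1080000) had changes of 0.137 and 0.153 but held only 1996 and 1814 reads in replicate 1 and 1243 and 1502 in replicate 2, and its limma SE of 0.088 was the largest of the 20. Without the outermost 20 kb its mean change was 0.049 in place of 0.145. The remaining windows were those of HOP2, a meiotic pairing protein (VII, 430001 to 440000), with changes of 0.149 and 0.128, and PET8, a mitochondrial carrier (XIV, 620001 to 630000), with 0.138 and 0.124. YDR061W (IV, 570001 to 580000), a little characterised gene, had 0.119 and 0.118. AVO1 on chromosome XV came next in rank, with 0.117 and 0.120.

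Among the windows that could be named, the largest shared change upward was in that of CHA1, a serine and threonine deaminase, near the left end of chromosome III (10001 to 20000), with 0.163 and 0.186. The window of SPB4 (VI, 140001 to 150000), left out with 7 rows, had 0.1995 and 0.237. The CHA1 window holds the silent mating locus HML. Here the replicates differed in level: -0.076 and 0.181 at 20 min, and 0.084 and 0.370 at 40 min. It is the window in which a 20-min level, that of replicate 2, exceeded a 40-min level of the other replicate.

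**Figure D3:**
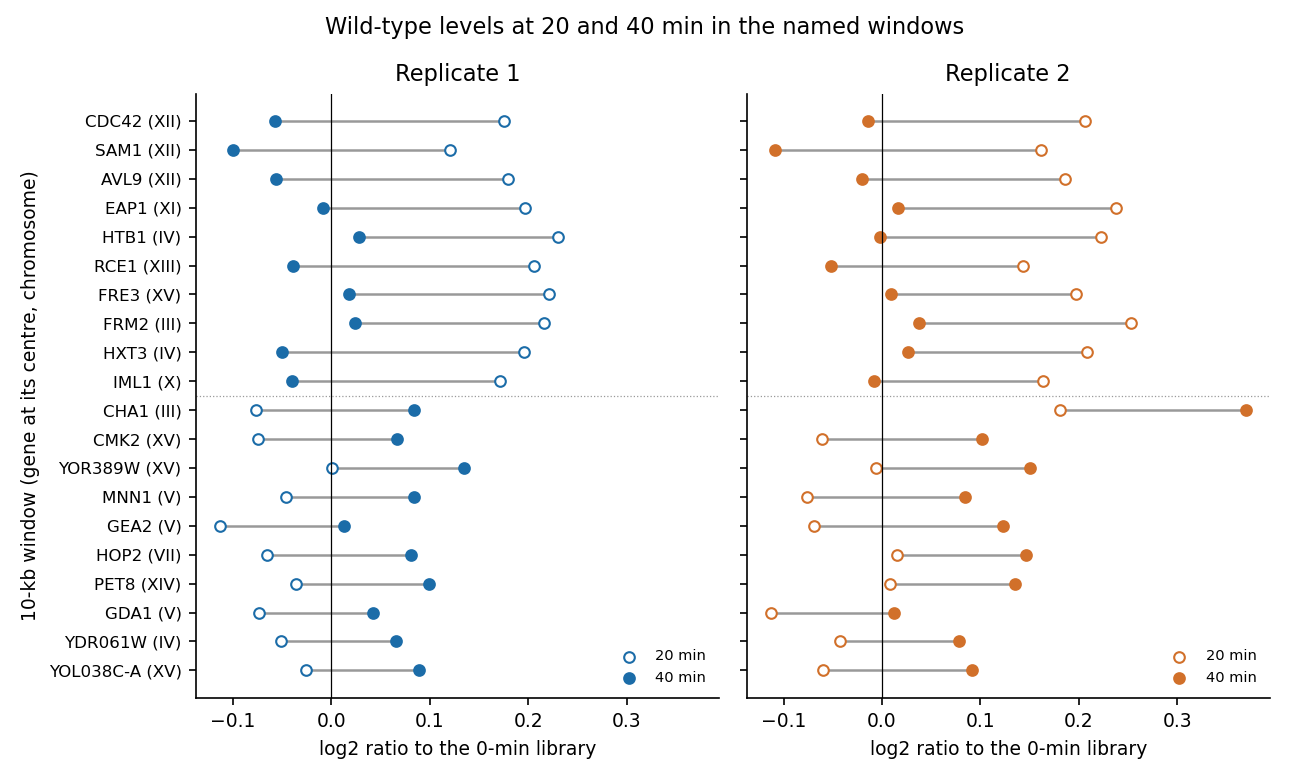
Level (log2 ratio to the 0-min library, centred on the nuclear median) at 20 min (open) and 40 min (filled) in the 20 named windows of 10 kb, replicate 1 left and replicate 2 right, losing windows above the dotted line and gaining windows below it. The 10 losing windows run from 0.121 to 0.253 at 20 min down to between -0.109 and 0.037 at 40 min.

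The eco1 mutant gave values on the same windows that could be set beside these. In the 10 losing windows the eco1 change was below 0 in 9 in each eco1 replicate, with medians of -0.082 and -0.058 against -0.214 and -0.214 in wild type. The exceptions were HTB1, at 0.085 in replicate 1, and FRM2, at 0.051 in replicate 2. In the FRE3 window 3 rows held at most 3 reads in each eco1 20- and 40-min library, and these rows enter its eco1 values and its SE. In the 10 gaining windows the eco1 change was above 0 in all 10 in replicate 1 and in 7 in replicate 2, with medians of 0.125 and 0.042. By the centring, as many rows of the genome lie above 0 as below it in each eco1 replicate. Limma's test of eco1 minus wild type in this change called 0 of 1213 windows (0%), with 40 at an unadjusted p under 0.05, and had adjusted p from 0.995 in the named windows. That miss does not show that the strains act alike. The windows were chosen for large wild-type changes, so a smaller change in eco1 is favoured by the choice and is no sign of a difference.

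Around the highest peaks of the 20-min profile the change was narrow and had flanks of the other sign. Peaks were local maxima of a running mean of 5 rows with a prominence of at least 0.1, taken from the replicate whose change was not read. Over all peaks the change within 2 kb was small, -0.015 in replicate 1 at 512 peaks of replicate 2, and -0.016 in replicate 2 at 370 peaks of replicate 1. It was below 0 at 262 of the 512 and at 209 of the 370. With a prominence of at least 0.2 it was -0.054 at 234 peaks and -0.065 at 146.

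The change followed the height of the peak in the replicate where it was found. In the lowest of 3 equal classes by height it was 0.028 and 0.018 in replicates 1 and 2, in the middle class 0.0035 and 0.011, and in the highest class -0.076 and -0.076. In the replicate read, the lowest class stood below the median at 20 min, at -0.033 and -0.026. The middle class stood near it, at -0.0026 and 0.0055. On average these 2 classes were thus not high in the replicate whose change is given. The highest class held 171 and 124 peaks, with a change below 0 at 129 and 95 of them. There the level within 2 kb went from 0.115 to 0.037 in replicate 1 and from 0.167 to 0.094 in replicate 2. The peaks thus kept part of their height at 40 min.

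At 10 to 20 kb from these high peaks the change was above 0, at 0.032 in replicate 1 and 0.050 in replicate 2. The level there was -0.017 and -0.021 at 20 min and 0.012 and 0.032 at 40 min. At 20 to 30 kb the change was 0.015 and 0.022. Of the distances given, the 20-min level was lowest at 10 to 20 kb, and the 40-min level differed less between the peaks and their flanks. In the eco1 mutant the change within 2 kb of the same peaks was 0.068 and 0.038 in replicate 1 and -0.061 and -0.069 in replicate 2, for peaks of wild-type replicates 2 and 1. At 3 to 6 kb it was below 0 in both eco1 replicates, at -0.027 to -0.0090, beside -0.043 and -0.059 in wild type. The eco1 value at the peak centre thus had opposite signs for its replicate numbers, whose match between the times was not tested.

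**Figure D4:**
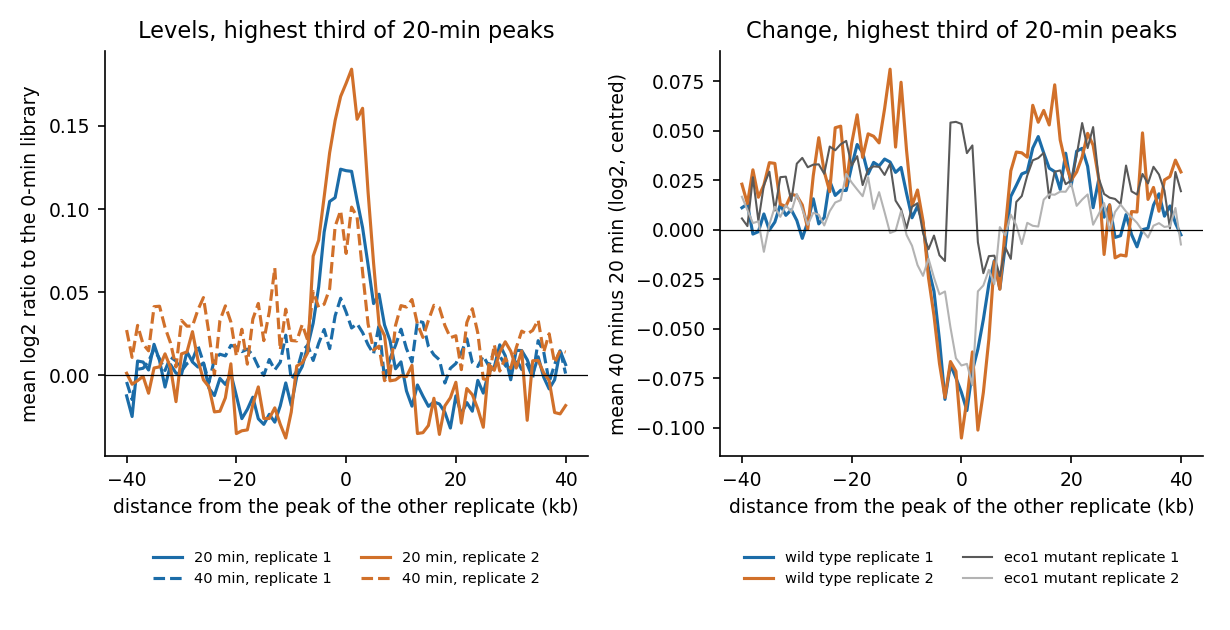
Mean level (left) and mean change (right; log2, centred) of 1-kb rows by distance from the highest of 3 height classes of 20-min peaks, found in the other replicate (171 and 124 peaks); the eco1 lines average over both sets of peaks. Wild-type changes are below 0 within 5 kb (-0.076 within 2 kb) and above 0 at 10 to 20 kb (0.032 and 0.050).

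Single rows were put into 10 equal classes by the 20-min column of the other replicate. The highest class lost here too, by less than the high peaks. In the highest of these classes, of 1163 rows, the change was -0.034 in replicate 1 and -0.032 in replicate 2, which is -0.033 ± 0.0014 (SD, n = 2). The other 9 classes lay between -0.0059 and 0.0092 in replicate 1 and between -0.022 and 0.018 in replicate 2. The lowest class had changes of 0.00057 and -0.022. In the replicate read it was not low at 20 min, at 0.0069 and 0.011. With the eco1 20-min column as the ruler, which shares no library with the change, the lowest class had changes of 0.046 and 0.088. Its wild-type level was already above the median at 20 min, at 0.016 and 0.061, and stood at 0.059 and 0.152 at 40 min. The highest class had -0.031 and -0.038 with this ruler. With windows in place of rows, chosen after seeing the data, the highest class had -0.083 and -0.069 and the lowest 0.017 and 0.024.

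By chromosome, the mean change ranged from -0.027 on XII to 0.027 on V, and limma called 0 of 16 (0%). Chromosome V had changes of 0.025 and 0.029 (mean 0.027 ± 0.0024 SD, n = 2; limma adjusted p = 0.103), and 5 of its 58 windows were higher by at least 0.1 in both replicates. Chromosome XII had -0.030 and -0.023 (mean -0.027 ± 0.0046 SD, n = 2; limma adjusted p = 0.105), and 9 of its 107 windows were lower by at least 0.1 in both. The values in eco1 were -0.0053 and -0.015 for V, and 0.019 and -0.0031 for XII. Both chromosomes passed limma's test without the rDNA and the outermost 20 kb (adjusted p = 0.029 for each) and with mean centring (0.014 for each), when III passed as well (0.043). With no centring V alone passed (0.044).

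The losses on XII were spread along long runs of windows. On XII, 16 windows in a row (780001 to 940000, from NMA1 to UTP21) were lower in both replicates, with means of -0.048 and -0.076, in the longest such run of the genome. Most of these windows were not high at 20 min: the window of FKS1, a glucan synthase subunit, stood at -0.067 and -0.0049 at 20 min and at -0.092 and -0.096 at 40 min. A second run on XII (600001 to 670000) begins at CDC42 and had means of -0.102 and -0.089 over 7 windows. Chromosome IV had 11 such windows in a row (1220001 to 1330000), with means of -0.030 and -0.034. The longest runs upward were of 6 windows, among them XVI 570001 to 630000 with 0.061 and 0.093, and II 270001 to 330000 with 0.054 and 0.071.

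Towards the chromosome ends the change was above 0 at 5 to 20 kb from the end. At 5 to 10 kb it was 0.042 and 0.044, at 10 to 20 kb 0.040 and 0.064, and at 20 to 30 kb 0.015 and 0.013, while in the outermost 5 kb it was -0.0056 and -0.049. These rows were not low at 20 min, with levels of -0.0053 and 0.093 at 5 to 10 kb and 0.016 and 0.042 at 10 to 20 kb. At 40 min they stood at 0.034 and 0.140, and at 0.053 and 0.109. Of 32 ends, 17 were higher in both replicates over 5 to 20 kb and 0 were lower in both. Of all 10-kb windows, 36% were higher and 35.5% lower in both. The ends kept unequal numbers of rows there, from 15 at many down to 3 at the right end of XIV, 2 at the left end of X and 1 at the left end of IX. Ends carry near-identical repeats, and reads from such copies cannot be placed with certainty. From the centromere outwards the change was 0.040 and 0.059 within 5 kb and -0.012 and 0.0055 at 5 to 10 kb. It was -0.028 and -0.0025 at 10 to 20 kb, and 0.041 and 0.038 at 30 to 50 kb. Levels at 10 to 20 kb from centromeres had been the highest of these classes at 20 min, at 0.083 and 0.077.

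**Figure D5:**
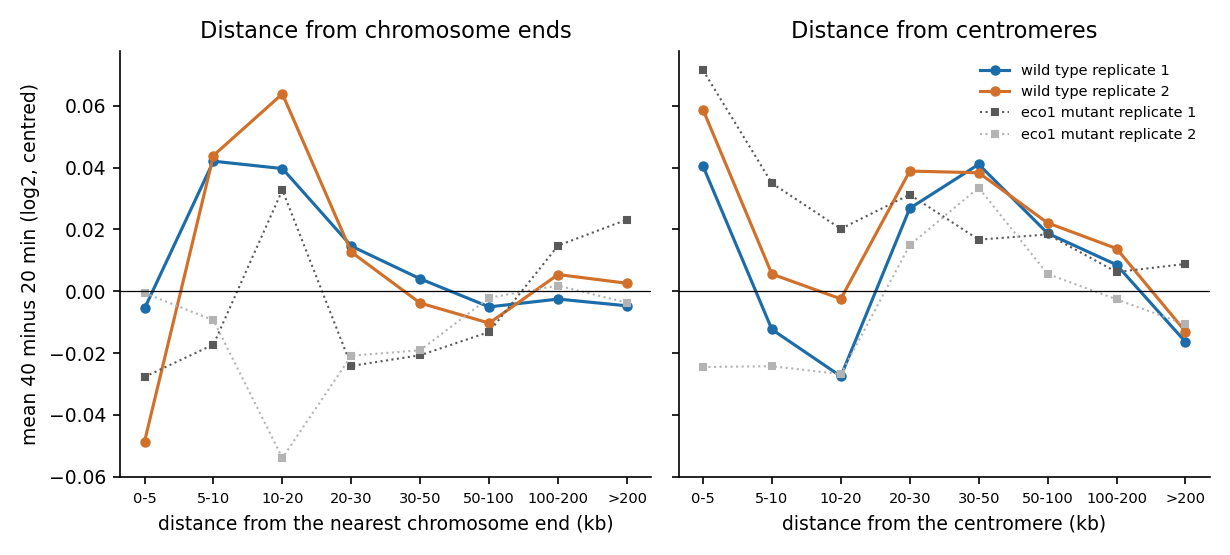
Mean change from 20 to 40 min (log2, centred) of 1-kb rows by distance from the nearest chromosome end (left) and from the centromere (right), for each wild-type and eco1 replicate. Both wild-type replicates are above 0 at 5 to 20 kb from an end (0.040 to 0.064) and at 20 to 50 kb from a centromere, and the eco1 replicates differ in sign at 10 to 20 kb from an end.

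Lists of loci were described by rows within 2.5 kb of a feature and by the windows that hold one, beside 35.5% of all windows lower and 36% higher in both replicates and a median window change of 0.00013. No window of any list passed limma's test, as in the genome. The core histone genes lie in 4 divergent pairs. Of the 4 windows that hold them, 3 were lower in both replicates. By rows within 2.5 kb, HTA1 and HTB1 had changes of -0.221 and -0.221. HHT1 and HHF1 had -0.151 and -0.140, and HTA2 and HTB2 had -0.096 and -0.107. The pair HHT2 and HHF2 had stood below the median at 20 min, at -0.050 and -0.074, and had changes of 0.087 and 0.114.

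The 16 centromere windows had a median change of 0.078, with 11 higher and 4 lower in both replicates. Windows with ribosomal protein genes, 124 in number, had a median of 0.023, with 59 higher (47.6%) and 33 lower (26.6%) in both. Windows with tRNA genes, 228 in number, had a median of 0.0030, with 92 higher (40.4%) and 82 lower (36%). The silent mating loci HML and HMR, which hold unexpressed copies of mating-type genes near the ends of chromosome III, had row means of 0.205 and 0.234 and of 0.141 and 0.351. They share sequence with the expressed MAT locus, so their reads could be split among copies. The repeated ribosomal DNA had opposite changes in the replicates, -0.142 and 0.140 over 9 rows.

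Row means of several lists differed in sign between the eco1 replicates. In eco1 replicates 1 and 2 the change was 0.095 and -0.033 around centromeres, 0.063 and -0.010 around ribosomal protein genes, and 0.063 and -0.024 around tRNA genes. Over rows, the change of wild-type replicate 2 correlated with r = 0.45 with that of eco1 replicate 1 and with r = 0.32 with that of wild-type replicate 1, while the eco1 replicates had r = -0.34 with each other. Mitochondrial DNA, outside the windows, had mean changes of -0.110 and 0.651 in wild type and of 0.738 and -0.768 in eco1. The part of these library differences in the list values was not tested.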

How the data were processed

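Genomic DNA was sequenced as Nextera XT libraries, per the labels' protocols. Per the submitters' processing notes, CASAVA 1.8.2 and Bowtie were used with the build sacCer3; their settings are not given in the sources used here. The authors deposited log2 ratios, in rows of 1 kb, that set every later library against one taken at 0 min. Repeated low values showed that they are log2 of RPM (reads scaled to mapped reads) plus 1 over the same in the 0-min library of the same strain and replicate. From these steps whole reads of all 12 libraries were recovered (12165 of 12165 rows) and used for depth and 1 alternative. The 8 smooth columns were not used.

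Rows with a ratio of 0 were left out, because 0 marks empty rows. The change was the 40-min minus the 20-min column of a replicate, centred on its nuclear median. Means of 10-kb windows and of chromosomes were fitted with limma 3.58.1 in R 4.3.3 on the 4 paired changes, with strain as group, 2 residual and 3.65 prior degrees of freedom for windows, and Benjamini-Hochberg adjustment (threshold 0.05). The fit was run on simulated data in which all 4 changes had the spread of the wild-type replicates. The larger difference between the eco1 replicates was not simulated. With 2 pairs an exact two-sided permutation test cannot give a p below 0.5, so none was used.

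Named windows had at least 8 rows, the same sign in both wild-type replicates, and lay outside the rDNA and the outermost 10 kb. They were ranked by the smaller absolute change of the 2 replicates, with at most 1 per 30 kb, 10 in each direction, and named by the gene nearest their centre. The comparison, the lists and the rule were chosen with earlier results of these data known. Gene positions were taken from RefSeq's R64 annotation, which is sacCer3, and a centromere was placed between the last left-arm and the first right-arm gene. Origin and Ty element lists were not analysed here. Alternatives changed windows, centring, filters, the block and libraries.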

Additional observations from a re-analysis of the deposited data

Results flagged for a closer look

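In 3 groups of rows near chromosome ends the change was above 0 in both wild-type replicates and below 0 in both eco1 replicates. The rows of the outermost 30 kb had a mean wild-type change of 0.026 (0.025 and 0.027), against -0.0043 and -0.028 in eco1. At 5 to 10 kb from an end the wild-type mean was 0.043, against -0.017 and -0.0094 in eco1, and at 20 to 30 kb it was 0.014, against -0.024 and -0.021. This did not hold at 0 to 5 kb, where all 4 values were below 0, or at 10 to 20 kb, where eco1 had 0.033 and -0.054 beside 0.040 and 0.064 in wild type. The difference between the strains was not tested for these groups of rows, which overlap.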

How the results depend on the processing

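The count of 0 wild-type windows past limma's threshold was also 0 with 5- or 20-kb windows, every centring tried, equal SD, the filter on outlying rows, no rDNA or ends, an adjusted p under 0.01, wild type alone and reads summed per window. It was 3 with no replicate block and 0 to 7 with 1 replicate left out (6 without wild-type replicate 1, 7 without replicate 2, where a lone library is assumed to vary like eco1). Deviations of the 20- and 40-min libraries of a number correlated with r = 0.45 in wild type and -0.28 in eco1. Crossing the eco1 numbers leaves the wild-type changes as they are and, with a negative r, makes the spread in the fit smaller, which favours calls. With reads and the eco1 numbers crossed, the counts were 64 in wild type and 1 for eco1 minus wild type. That last count, 0 as reported, was 1 with no centring, 2 with reads, and 0 to 7 with 1 replicate left out. Chromosomes past the threshold, 0 as reported, were 1 with no centring, 3 with mean centring and 2 without rDNA and ends.

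The 20 named windows kept their sign in every setting that held them, but many of these settings could not change it. The windows were named for the same sign in both wild-type replicates, so leaving either out keeps it. Leaving out eco1 libraries or the block hardly touches the wild-type mean. For CDC42 it was -0.2263 as reported and with wild type alone, and -0.2262 with no block. Only changes of centring, of the rows kept or to summed reads could have changed the sign. In the highest class of rows, -0.033 as reported, the change was -0.110 with the same replicate as ruler and -0.014 with 5 classes. It was -0.038 without rDNA and ends and -0.076 with windows. The replicates alone gave -0.034 to -0.032. In the lowest class, -0.011 as reported, it was 0.067 with the eco1 ruler, 0.105 with the same replicate and 0.021 with windows. At 20-min peaks, -0.015 as reported, it was -0.060 with a prominence of 0.2 and -0.059 with a running mean of 10 rows. Apart from limits by construction, the cause of these moves was not tested. A planned count model on the recovered reads was not run. Depth limits windows to a counting SD of 0.023 to 0.029.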
